A study of Mus musculus with 9 samples.

Results

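The genes described here encode the sarcomere of mouse heart muscle, its Z-disc and its M-band, apart from the myosin heavy chains. The genes were picked by symbol and function, at a time when earlier results of these data were known. It holds 36 genes, of which 31 have a row among the 22851 genes of the deposited count matrix, and Tnnc1, Actc1, Acta1, Myom1 and Xirp1 were not analysed here. All 31 passed the filter on low counts in each comparison.

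Heart RNA of male C57BL/6 mice (C57BL/6J in the study's methods), 6 to 8 weeks old at the start, was sequenced in 9 libraries, 3 in each of 3 groups. CK mice received citrate buffer. DCM mice, a model of diabetic cardiomyopathy through type 1 diabetes, received a single dose of streptozotocin at 180 mg/kg, a toxin of the pancreatic beta cell, and were kept for 12 weeks. SPM mice received the same streptozotocin and also spermine, a polyamine, at 1 mg/kg, daily for 2 weeks before streptozotocin and on alternate days for the 12 weeks after it. No group received spermine without streptozotocin, and the methods do not settle whether a library holds 1 mouse (3 mice per group are given) or a pool (18 hearts mixed in pools of 6 are given as well). The p-values therefore measure only the spread between these libraries, which may be technical.

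A sarcomere is the repeating unit of contraction, in which thick filaments of myosin slide along thin filaments of actin, tropomyosin and troponin. Thin filaments are anchored in the Z-disc and thick filaments are held together in the M-band, while titin spans from one to the other as a spring. Many Z-disc proteins also bind signalling proteins, and several of them are known to respond to stretch of the heart muscle cell.

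Total counts per library lay between 29901300 and 39718680, and the 31 genes took 5.12% to 5.96% of them. The median share of mitochondrial genes was 15.4% of counts for the CK libraries, 16.8% for the DCM libraries and 21.1% for the SPM libraries. The deposited extraction protocol speaks of retinas, whereas the tissue labels give heart. The 8 cardiomyocyte markers that are not among the 31 genes, led by Myh6, summed to between 34695 and 53592 CPM (counts scaled to a library of 1e6), and the 7 retina markers to between 0.422 and 1.82 CPM. SPM replicate 2 stood apart in that its counts lay at 45.2% of SPM replicate 1 plus the rest of SPM replicate 3. The median squared deviation from that sum was 0.868 of counting noise over 11155 genes, and the next smallest among the other 251 combinations of 3 libraries was 2.69. SPM replicate 2 lay strictly between the other SPM libraries for 25 of the 31 genes on the normalized CPM scale, and the share over all genes was not counted. Since 3 libraries that hold fewer than 3 independent samples understate the spread, the counts of genes past the test and the calls of the 31 genes that involve SPM are given with and without it. It was kept in all other values.

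Per transcript length, as FPKM (counts scaled to gene length and library total), the levels of the 31 genes spanned a wide range. The ventricular regulatory light chain Myl2 was highest, at 7259 ± 272 FPKM in CK (SD, n = 3), followed by the essential light chain Myl3 at 5960 ± 448 and the cardiac troponin I gene Tnni3 at 4543 ± 177. Tpm1 (the main cardiac tropomyosin), Tcap (the Z-disc cap of titin), Tnnt2 (cardiac troponin T) and Mybpc3 (myosin-binding protein C) also had medians over 1000 FPKM across the 9 libraries, which made 7 such genes, and 18 had medians over 100 FPKM. Of the 100 genes with the highest FPKM, 12 were among the 31. The low end held Xirp2, Tnni1 and Myoz1. Titin itself, Ttn, stood at only 12.2 ± 1.80 FPKM in CK, so that Mybpc3 was 87.2 ± 17.4 times higher per length. The length behind the Ttn value was 106824 bases. The study enriched mRNA with oligo(dT) beads, and how evenly reads covered this length was not tested. Tpm1 was 151 ± 22.6 times higher than Tpm2 in CK, and Tnni3 was 7899 ± 1641 times higher than Tnni1, the slow skeletal and fetal troponin I.

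**Figure D1:**
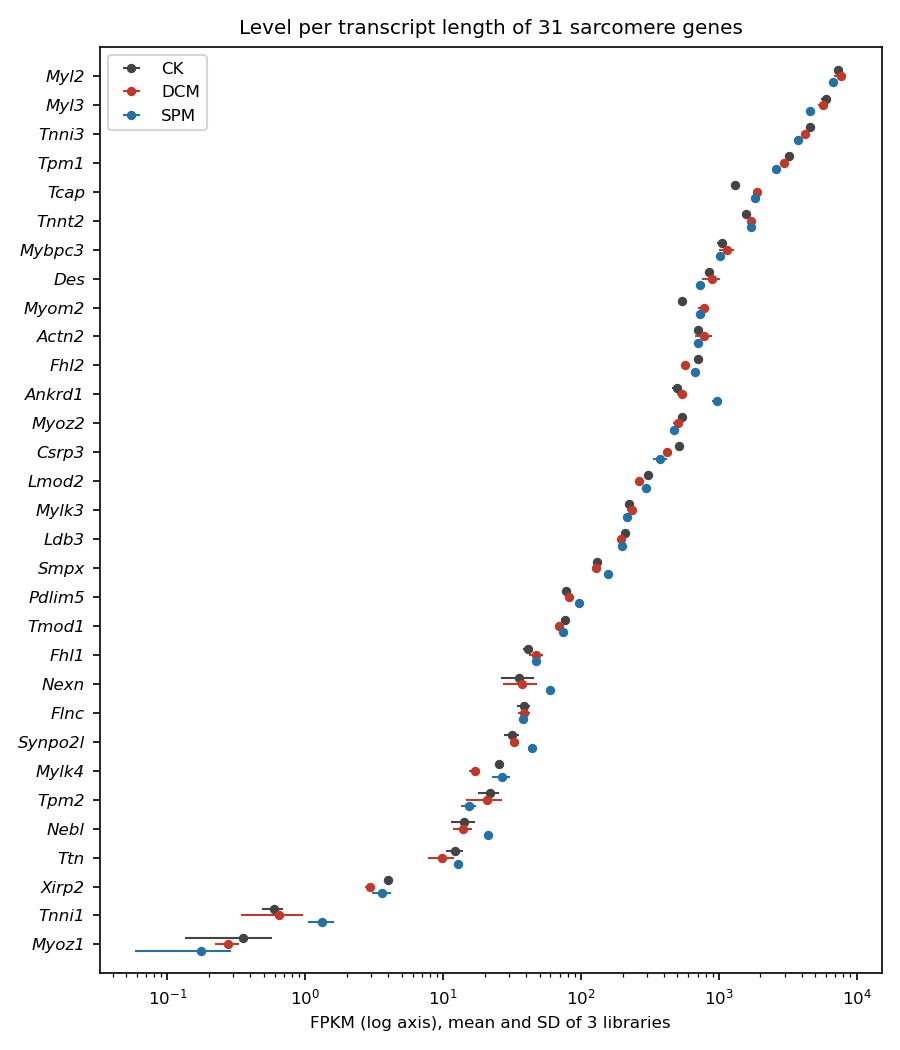
FPKM of the 31 genes on a log axis, ordered by their median over 9 libraries, with points at the group mean and bars at the SD of 3 libraries. Myl2 stands at the top and Myoz1 at the bottom in all 3 groups. Gaps between groups include higher means in SPM than in CK for Tcap, Myom2, Ankrd1, Nexn, Synpo2l, Nebl and Tnni1. They also include lower means than in CK for Mylk4 and Xirp2 in DCM and for Csrp3, Tpm2 and Myl3 in SPM.

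The spread between libraries of a group was small for most of the genes. The median coefficient of variation of normalized CPM was 6.00% in CK, 8.40% in DCM and 4.80% in SPM. DCM replicate 2 was the highest of the 9 libraries for 9 genes and the highest of the DCM libraries for 16, among them Myl2, Mybpc3, Actn2 and Des. The shares of all genes for which this held were not counted.

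Tcap of the Z-disc and Myom2 of the M-band rose with diabetes, and Mylk4 and Xirp2 fell. In DCM compared to CK, these 4 of the 31 genes passed the test (edgeR's quasi-likelihood test, Benjamini-Hochberg adjusted p below 0.05 over all genes) against 10.4% of all 14402 genes tested. Higher were 2 of 31 against 5.28% of all genes, and lower were 2 of 31 against 5.11%. In this edgeR fit, Tcap and Myom2 also reached the fold change of 1.5 that the study's rule for differentially expressed genes (DEGs) asks for. Of all genes, 4.34% met that rule in either direction and 2.03% upward. The study applied its rule to DESeq2 fits, and it lists Mylk4 among the genes changed in DCM and reversed by spermine. By edgeR the fold change of Mylk4 in DCM compared to CK was 0.709, short of a 1.5-fold fall. Its mean FPKM was 25.5 ± 0.47 in CK and 17.0 ± 1.47 in DCM (SD, n = 3). With limma on FPKM, an alternative fit listed further on, its fall met the rule. The source of this difference between fits was not tested. The libraries of both groups did not overlap for 8 of the 31 genes, against 29.3% of all genes. The median log2 fold change was 0.07 for the 31 genes and -0.00 for all genes. In whole-heart RNA, fewer cells of a type and less RNA per cell cannot be told apart.

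With spermine, Ankrd1, Nexn, Mylk4 and Nebl rose by 1.5-fold or more over streptozotocin alone. Of these 4, Ankrd1 alone kept both the test and the 1.5-fold with a correction for GC content, and likewise without DCM replicate 2. In SPM compared to DCM, 9 of the 31 genes passed, against 16.6% of 14493 genes. Higher were 8 (Ankrd1, Nebl, Mylk4, Synpo2l, Nexn, Smpx, Pdlim5 and Fhl2), against 8.87% of all genes, and lower was 1 (Myl3), against 7.76%. Ankrd1, Nexn, Mylk4 and Nebl were DEGs and all higher, against 3.59% of all genes in either direction and 2.70% upward. The libraries did not overlap for 16, against 39.2% of all genes. Without SPM replicate 2, the test was passed by Ankrd1, Mylk4 and Nebl alone, 3 of 31 against 0.486% of all genes, and without DCM replicate 2 by 4 of 31 (Ankrd1, Nebl, Nexn and Synpo2l) against 1.29%. The comparison uses the same DCM libraries as the one above.

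In SPM compared to CK, 15 of the 31 genes passed, against 27.4% of 14574 genes. The 11 higher genes (13.0% of all genes were higher) were Ankrd1, Myom2, Tcap, Pdlim5, Synpo2l, Smpx, Nebl, Tnni1, Nexn, Tnnt2 and Fhl1, and the 4 lower ones (14.3% of all genes) were Csrp3, Tpm1, Myl3 and Tnni3. Ankrd1, Tnni1, Nexn and Nebl were DEGs and all higher, against 9.21% of all genes in either direction and 5.08% upward. For 17 of the 31 genes the libraries did not overlap, against 46.3% of all genes. Without SPM replicate 2, 9 passed, all higher, against 10.4% of all genes, and Tnnt2, Fhl1 and the 4 lower genes no longer did. Over the 3 comparisons, 13 of the 31 genes passed in none.

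**Figure D2:**
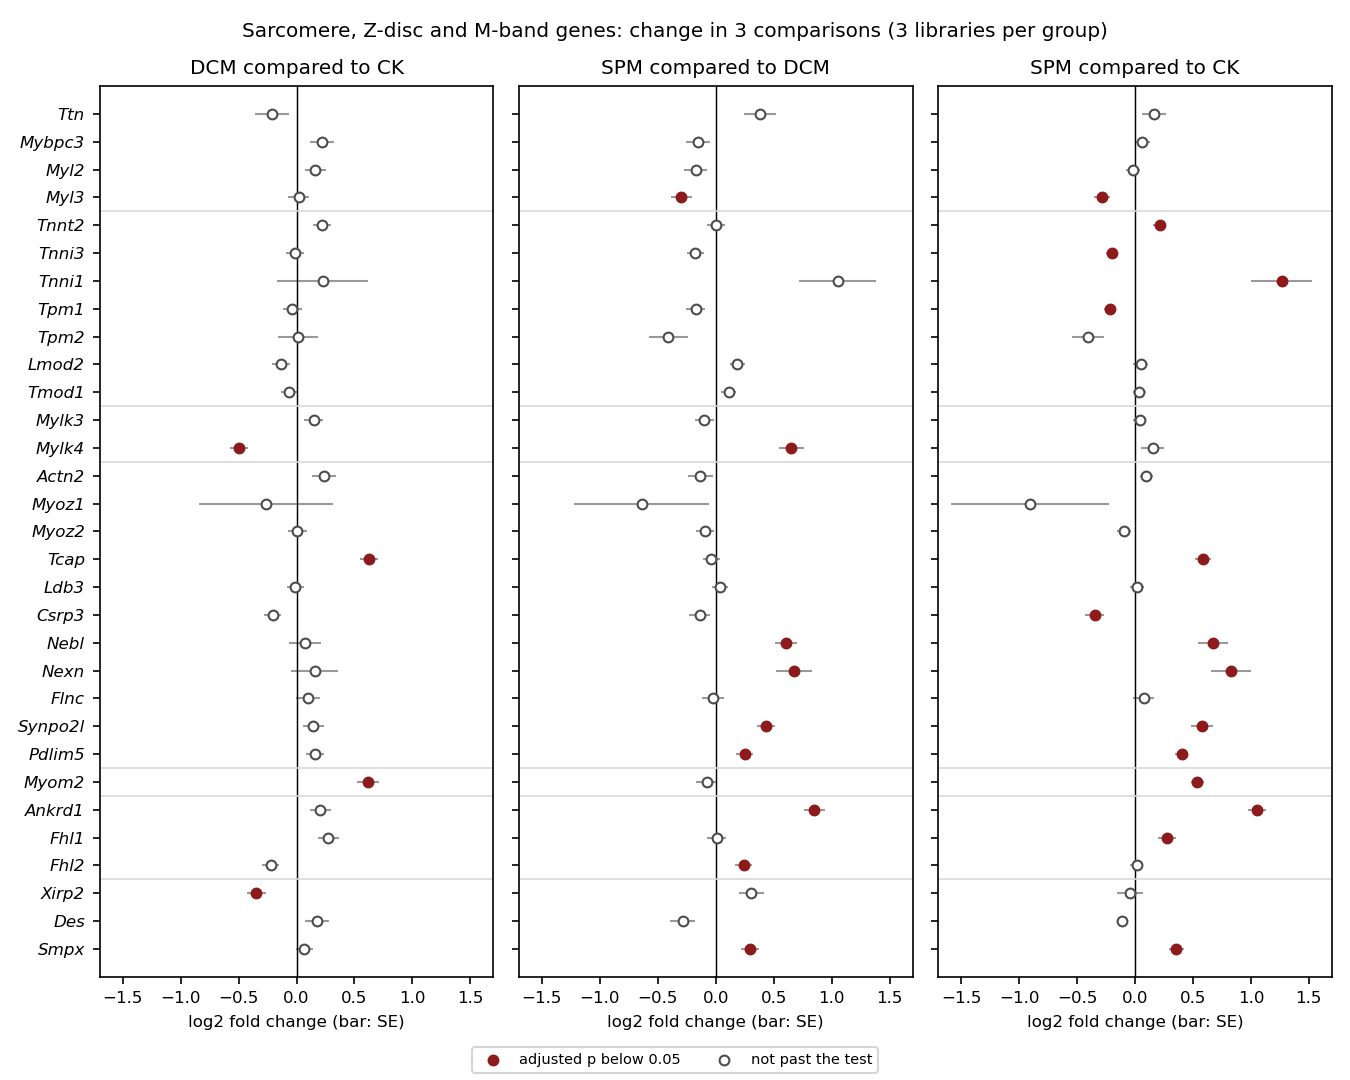
Log2 fold changes of the 31 genes in 3 comparisons (points, with SE bars, 3 libraries per group), grouped by role with grey lines. Filled points passed the test, 4 in DCM compared to CK, 9 in SPM compared to DCM and 15 in SPM compared to CK, and the bars of the low-count genes Tnni1 and Myoz1 are the widest.

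Of the thick filament genes, Myl3 passed in both comparisons with SPM. None of Ttn, Mybpc3, Myl2 and Myl3 passed in DCM compared to CK, with log2 fold changes between -0.21 and 0.22. Myl3 stood at 6929, 5968 and 6363 CPM in CK, at 6676, 6893 and 5928 in DCM and at 5668, 5252 and 4937 in SPM, so that all SPM libraries lay below all others. Its log2 fold change in SPM was -0.29 ± 0.07 (SE) compared to CK and -0.30 ± 0.09 compared to DCM (edgeR, adjusted p = 0.019 and 0.048). Without SPM replicate 2 neither passed (adjusted p = 0.084 and 0.20), the first did not pass without CK replicate 1 either (adjusted p = 0.057), and the second passed with 1 of 6 libraries left out, DCM replicate 3. Ttn was listed at 1033 to 1376 CPM in CK, at 826 to 1296 in DCM and at 1328 to 1480 in SPM. DCM and SPM did not overlap, with an edgeR adjusted p of 0.077, while CK overlapped both. In SPM compared to CK the log2 fold change of Ttn was 0.16 (edgeR, adjusted p = 0.28).

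Among the thin filament genes, which cover troponins, tropomyosins and the pointed-end proteins Lmod2 and Tmod1, none of 7 passed in DCM compared to CK. Tnnt2 was 4842 to 5248 CPM in CK and 5556 to 5989 in DCM, against 5555 to 6116 in SPM, and its rise passed against CK in SPM (log2 fold change 0.21 ± 0.06, edgeR adjusted p = 0.023), while in DCM compared to CK the log2 fold change was 0.22 ± 0.08 (adjusted p = 0.098). Tpm1 and Tnni3 fell by 0.22 and 0.20 on the log2 scale in SPM compared to CK (edgeR, adjusted p = 0.015 and 0.024). Without SPM replicate 2, Tnnt2 (adjusted p = 0.11), Tpm1 (0.091) and Tnni3 (0.13) did not pass, and Tnnt2 and Tnni3 passed with 2 of 6 libraries left out in turn. With the GC correction described further on, Tnni3 had a log2 fold change of -0.064 (edgeR, adjusted p = 0.42). The ratio of Tnnt2 to Tnni3 in FPKM was 0.347 ± 0.012 in CK, 0.407 ± 0.034 in DCM and 0.460 ± 0.012 in SPM (SD, n = 3).

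Tnni1 was counted 31, 44 and 44 times in CK, 40, 66 and 36 times in DCM and 117, 89 and 72 times in SPM. These small numbers rank all SPM libraries above all others, with DCM replicate 2 the nearest. The log2 fold change of Tnni1 was 1.27 ± 0.26 in SPM compared to CK (edgeR, adjusted p = 0.0097) and 1.05 ± 0.33 in SPM compared to DCM, which did not pass (adjusted p = 0.053) but did under 5 of 17 alternatives (DESeq2, no low-count filter, a filter at 1 CPM, the replicate block and leaving out SPM replicate 3). Even at its highest it remained at 1.33 ± 0.28 FPKM in SPM, against 3716 ± 74.4 FPKM of Tnni3. Tmod1 shares 32.6% of its exon bases with Tstd2 on the opposite strand, and whether counting used strand is not given in the sources used here, so its values, 216 to 242 CPM in all 9 libraries, may hold reads of both genes.

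The pair of myosin light chain kinases differed from each other. Mylk3, the cardiac kinase that phosphorylates Myl2, was 759 to 953 CPM in all 9 libraries and passed in no comparison. Its relative Mylk4 stood at 133, 137 and 138 CPM in CK, at 92.0, 90.9 and 106 in DCM and at 175, 151 and 128 in SPM. All DCM libraries lay below all others, and SPM replicate 3 lay below CK. The log2 fold change was -0.50 ± 0.08 in DCM compared to CK (edgeR, adjusted p = 0.0015), 0.65 ± 0.11 in SPM compared to DCM (adjusted p = 0.011) and 0.15 ± 0.10 in SPM compared to CK (adjusted p = 0.29). The fall in DCM passed under each of the 16 alternatives, and the rise in SPM under 15 of 17, with the exceptions of leaving out DCM replicate 2 (adjusted p = 0.061) and of the GC correction without SPM replicate 2 (adjusted p = 0.17). In FPKM, Mylk3 was 8.79 ± 0.35 times higher than Mylk4 in CK, 13.8 ± 1.73 times in DCM and 8.30 ± 1.36 times in SPM.

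The 250 bases before the annotated start of Mylk4 are shown because this kinase moved both with diabetes and with spermine. They lie at chr13:32783965-32784214 on the minus strand of RefSeq build GRCm38.p6, 5′ to 3′, with capitals at a MEF2 site that lies between 103 and 94 bases before the start and reads as such on both strands.
Mylk4: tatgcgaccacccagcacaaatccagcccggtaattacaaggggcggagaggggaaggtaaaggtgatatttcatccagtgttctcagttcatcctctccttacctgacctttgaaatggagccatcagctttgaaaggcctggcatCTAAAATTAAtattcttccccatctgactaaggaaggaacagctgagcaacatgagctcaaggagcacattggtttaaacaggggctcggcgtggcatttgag

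Z-disc genes gave 1 of 11 past the test in DCM compared to CK (10.4% of all genes), 4 in SPM compared to DCM (16.6% of all genes) and 6 in SPM compared to CK (27.4% of all genes). Tcap (telethonin), which caps titin in the Z-disc, stood at 1189, 1093 and 1290 CPM in CK, at 1841, 1872 and 1800 in DCM and at 1863, 1794 and 1718 in SPM. Both groups of streptozotocin mice lay above CK without overlap, and they overlapped each other. The log2 fold change was 0.63 ± 0.08 in DCM compared to CK (edgeR, adjusted p = 0.00042), 0.58 ± 0.07 in SPM compared to CK (adjusted p = 0.0012) and -0.04 ± 0.07 in SPM compared to DCM (adjusted p = 0.75). The 2 rises passed under all alternatives, 16 and 17.

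Nebl, the nebulin relative that anchors actin in the cardiac Z-disc, was 83.8, 120 and 124 CPM in CK, 128, 96.4 and 120 in DCM and 168, 178 and 180 in SPM. All 3 SPM libraries were above the 6 others. Its log2 fold change was 0.61 ± 0.10 in SPM compared to DCM (edgeR, adjusted p = 0.010) and 0.67 ± 0.13 in SPM compared to CK (adjusted p = 0.0081). Corrected for GC content the first was 0.28 (adjusted p = 0.051) and the second 0.39 (adjusted p = 0.012).

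Nexn, an actin-binding protein of the Z-disc, gave 60.4, 99.4 and 104 CPM in CK, 119, 68.6 and 107 in DCM and 150, 156 and 164 in SPM. CK and DCM overlapped widely, and SPM was above both. The log2 fold change was 0.68 ± 0.16 in SPM compared to DCM (edgeR, adjusted p = 0.022) and 0.83 ± 0.17 in SPM compared to CK (adjusted p = 0.011). The first was not past the test without SPM replicate 2 (adjusted p = 0.067), without DCM replicate 3 (adjusted p = 0.053) or with the GC correction (log2 fold change 0.34, adjusted p = 0.10). Nexn and Nebl were lowest in CK replicate 1 among CK libraries and in DCM replicate 2 among DCM libraries.

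Synpo2l, an actin-associated protein of the Z-disc, was 116 to 150 CPM in CK and 140 to 152 in DCM, against 184 to 214 in SPM, and its log2 fold change was 0.43 ± 0.08 in SPM compared to DCM (edgeR, adjusted p = 0.011). Pdlim5, a scaffold with PDZ and LIM domains, was 359 to 391, 389 to 433 and 485 to 506 CPM in the same order (log2 fold change 0.25 ± 0.07 in SPM compared to DCM, edgeR adjusted p = 0.038). The adjusted p was 0.057 for Synpo2l and 0.17 for Pdlim5 without SPM replicate 2, and Pdlim5 passed with 1 of 6 libraries left out in turn, DCM replicate 3. Csrp3, the muscle LIM protein, was lower in SPM than in CK (log2 fold change -0.35 ± 0.08, edgeR adjusted p = 0.015, and 0.073 without SPM replicate 2), at 1144 to 1242 CPM in CK and 985 to 1065 in DCM, against 847 to 1052 in SPM. The other Z-disc genes, which are Actn2 (alpha-actinin), Ldb3 (the PDZ-LIM protein Cypher), Flnc (filamin C), Myoz2 and Myoz1 (calsarcins), passed in none of the 3 comparisons. Ldb3 had group means of 1024, 1017 and 1041 CPM in CK, DCM and SPM, and Myoz1 had only 2 to 22 counts per library.

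The M-band was represented by Myom2, which encodes myomesin 2, a cross-linker of thick filaments. It stood at 2586, 2472 and 2782 CPM in CK, at 3535, 4448 and 4058 in DCM and at 3834, 3782 and 3790 in SPM. No CK library reached the lowest of the others. The log2 fold change was 0.62 ± 0.09 in DCM compared to CK (edgeR, adjusted p = 0.0013), 0.54 ± 0.06 in SPM compared to CK (adjusted p = 0.00093) and -0.08 ± 0.09 in SPM compared to DCM (adjusted p = 0.58). Both rises passed under every alternative, 16 and 17.

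Ankrd1, the cardiac ankyrin repeat protein that binds titin and is known to be induced by stretch, had the smallest adjusted p of the 31 genes in both comparisons with SPM. It stood at 914, 768 and 837 CPM in CK, at 881, 984 and 1041 in DCM and at 1898, 1736 and 1609 in SPM. The lowest SPM library was above the highest of the 6 others, and CK and DCM overlapped. The log2 fold change was 0.85 ± 0.09 in SPM compared to DCM (edgeR, adjusted p = 0.0065), 1.05 ± 0.08 in SPM compared to CK (adjusted p = 0.00036) and 0.21 ± 0.09 in DCM compared to CK (adjusted p = 0.17). Without SPM replicate 2 the first was 0.86 (adjusted p = 0.022), and with the GC correction 0.78 (adjusted p = 0.017). With both together it was 0.78 with an adjusted p of 0.061, where 0.00% of all genes passed (the same fit of SPM compared to CK gave 6 of the 31 genes, against 7.54%).

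The 250 bases before the annotated start of Ankrd1 are shown because this gene had the smallest adjusted p with spermine. They lie at chr19:36119845-36120094 on the minus strand of RefSeq build GRCm38.p6, 5′ to 3′. Capitals mark matches to the reverse complement of CATTCC (the MCAT box, which TEAD factors bind), between 210 and 205 and between 123 and 118 bases before the start.
Ankrd1: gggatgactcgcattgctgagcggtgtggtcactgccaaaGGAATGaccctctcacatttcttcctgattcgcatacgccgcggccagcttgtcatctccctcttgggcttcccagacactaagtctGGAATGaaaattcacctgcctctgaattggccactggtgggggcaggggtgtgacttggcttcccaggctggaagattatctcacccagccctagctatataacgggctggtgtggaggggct

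**Figure D3:**
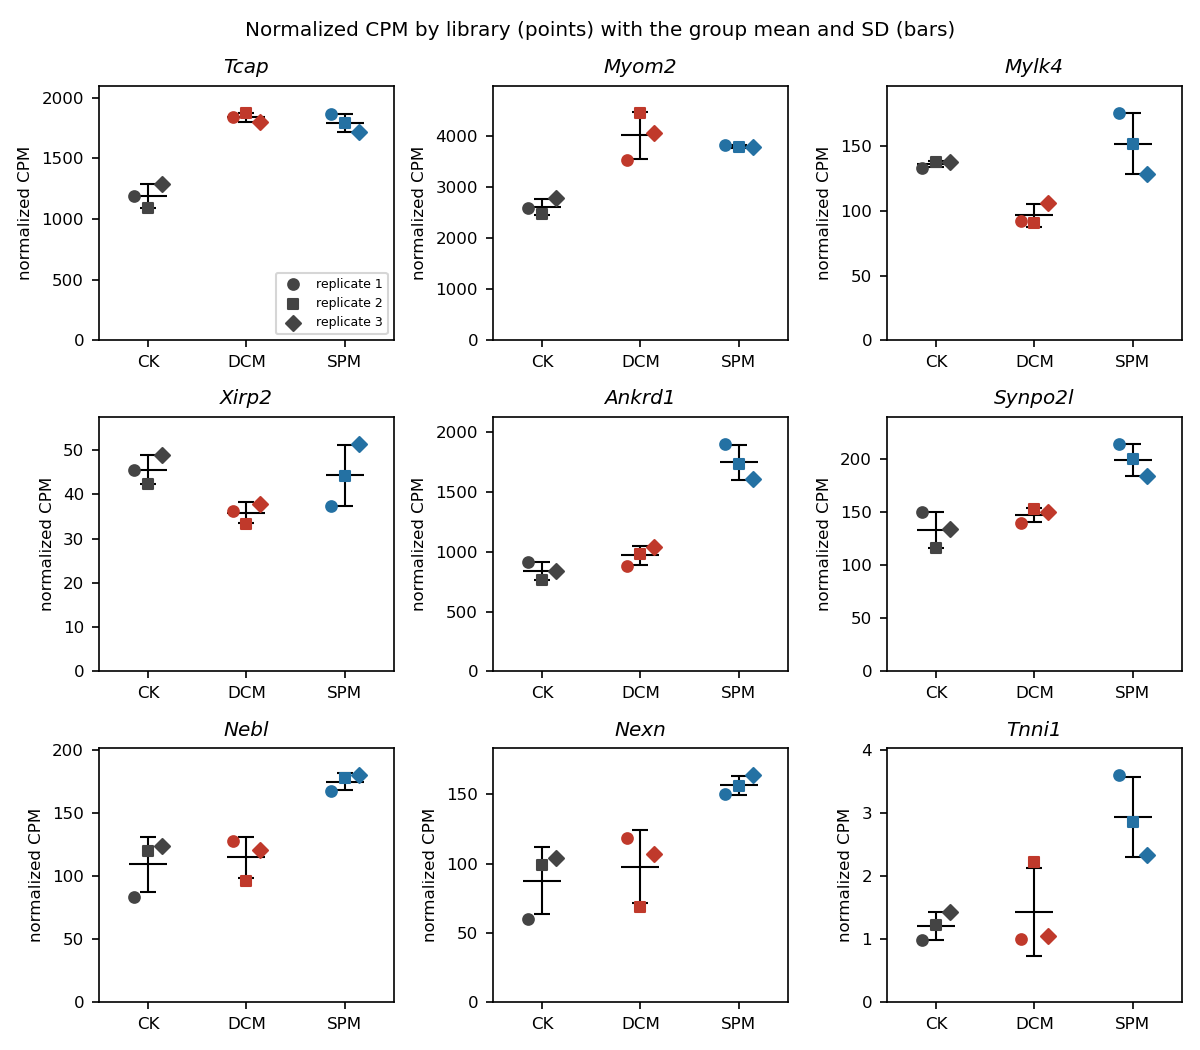
Normalized CPM of 9 of the genes in each library (points, shape by replicate number) with the group mean and SD (bars). Tcap and Myom2 are above CK in both DCM and SPM, Mylk4 and Xirp2 are lowest in DCM, and Ankrd1, Synpo2l, Nebl, Nexn and Tnni1 are highest in SPM, where SPM replicate 2 usually lies between the other SPM libraries.

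Fhl1 and Fhl2 are LIM proteins that bind titin. Fhl2 was 1030 to 1103 CPM in CK and 874 to 938 in DCM, against 1013 to 1129 in SPM, and it was higher in SPM than in DCM (log2 fold change 0.24 ± 0.07, edgeR adjusted p = 0.048), a call that was lost with each library left out (adjusted p 0.055 to 0.20). Fhl1 was 103 to 123 CPM in CK and 119 to 146 in DCM, against 132 to 135 in SPM, and it was higher in SPM than in CK (log2 fold change 0.28 ± 0.07, edgeR adjusted p = 0.026). The adjusted p of Fhl1 was 0.088 without SPM replicate 2, and it passed with 2 of 6 libraries left out in turn.

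At the cell margin, Xirp2 (a protein of the intercalated disc) was 45.4, 42.3 and 48.9 CPM in CK, 36.2, 33.2 and 37.9 in DCM and 37.4, 44.1 and 51.3 in SPM. DCM lay below CK without overlap, and SPM spanned both. Its log2 fold change was -0.35 ± 0.09 in DCM compared to CK (edgeR, adjusted p = 0.021), and 12 of 16 alternatives passed. The adjusted p was 0.082 without CK replicate 3, 0.053 without DCM replicate 1 and 0.087 without DCM replicate 2. Smpx, a small muscle protein, was higher in SPM (173 to 200 CPM) than in DCM (141 to 160 CPM, log2 fold change 0.30 ± 0.08, edgeR adjusted p = 0.030). Its adjusted p was 0.13 without SPM replicate 2, and it passed with 2 of 6 libraries left out in turn. Des, the intermediate filament protein desmin, passed in no comparison.

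The fold changes in SPM compared to DCM moved with the base composition of the genes. Across the 31 genes, Pearson's r of the log2 fold change with the GC content of the longest transcript was -0.51 and Spearman's rho was -0.55, and across 14484 genes rho was -0.50. In SPM compared to CK, r and rho were -0.25 and -0.21 across the 31 genes, and rho was -0.37 across 14564 genes. In DCM compared to CK the sign was opposite, with r and rho of 0.35 and 0.31 across the 31 genes and a rho of 0.060 across 14392 genes. The genes of a comparison share their 6 libraries and are not independent. The range of GC content was 39.6% (Nexn) to 61.3% (Tcap). After correction for the trend of each library on GC content, 5 genes passed, against 3.08% of all genes. Ankrd1, Mylk4, Synpo2l and Fhl2 remained among them, and Myoz2, with a log2 fold change of -0.46 (edgeR, adjusted p = 0.046), was added. The values of Smpx and Pdlim5 came to 0.08 and 0.05. With the correction 15 passed in SPM compared to CK, against 21.3% of all genes, where Actn2 (log2 fold change 0.22) and Myoz2 (-0.42) came in and Smpx (0.18) and Tnni3 (-0.064) dropped out, and in DCM compared to CK 6 passed, 4 higher and 2 lower, against 13.0%. The part of base composition in these differences was not tested further.

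**Figure D4:**
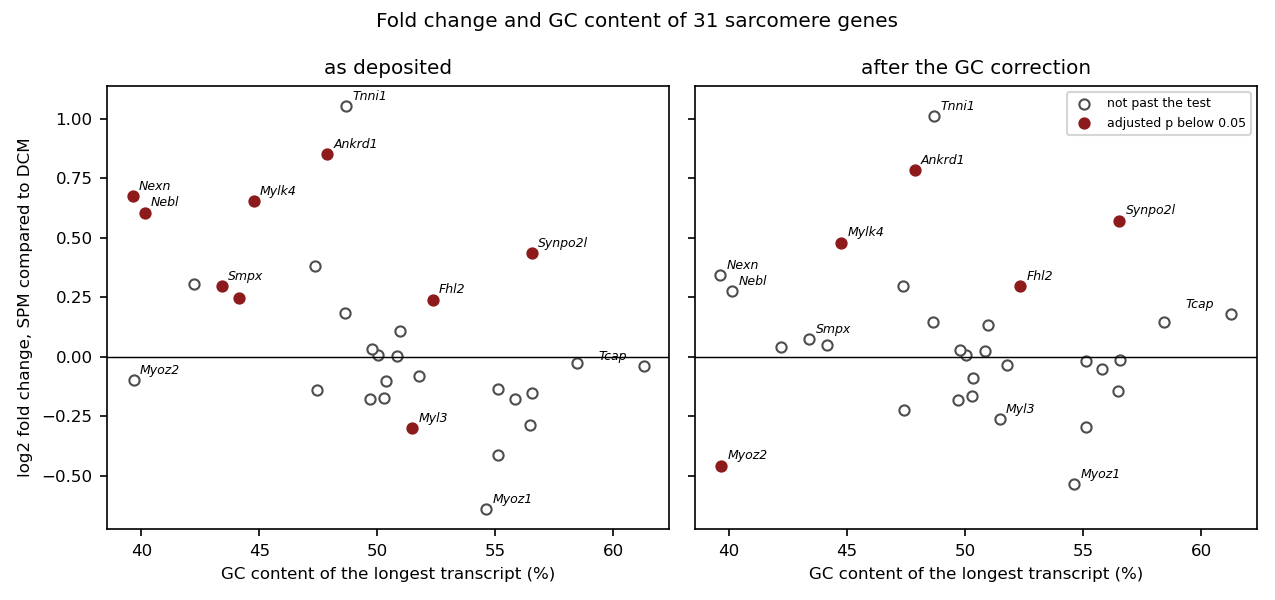
Log2 fold change of the 31 genes in SPM compared to DCM against the GC content of the longest transcript, as deposited (left) and after the GC correction (right), with filled points past the test. Nexn and Nebl, low in GC content, move from 0.68 and 0.61 to 0.34 and 0.28, whereas Ankrd1 moves from 0.85 to 0.78.

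Promoter windows of 300 bases (250 before and 50 after the start) were found in RefSeq for 27 of the 31 genes, 41 windows in all, some of which overlap within a gene. A MEF2 site on either strand was present in 19.5% of these windows and in 3.19% of 32851 windows of all genes, and a CArG box, the site of serum response factor, in 17.1% and 1.63%. MEF2 sites were found for Fhl2, Mybpc3, Mylk4, Myoz2, Synpo2l, Ttn and Xirp2, and CArG boxes for Fhl1, Fhl2, Ldb3, Myl3 and Nebl. CATTCC was in 24.4% of the windows and 14.7% of all, and TATAAA in 9.76% and 13.6%.

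Other sarcomere genes were listed beside the 31 and were tested in the same fits. Of 12 other contractile isoforms tested in DCM compared to CK, 1 rose and 5 fell, where 10.4% of all genes passed. Myh7, the slow beta myosin heavy chain, rose from 205 ± 72.6 to 1452 ± 400 CPM (log2 fold change 2.82 ± 0.24, edgeR adjusted p = 2.5e-05), and it stood at 3424 ± 1418 CPM in SPM. Myl1, a myosin light chain of fast skeletal muscle, Myl4, the essential light chain of the atria, and Mybphl, a relative of Mybpc3, fell by 1.23, 0.96 and 1.04 on the log2 scale. Of the same 12 isoforms, 2 rose and 0 fell in SPM compared to DCM (16.6% of all genes passed), both DEGs. In SPM compared to CK 2 rose and 7 fell (27.4%). Without SPM replicate 2, 0 passed by edgeR in the first (0.486% of all genes), with 5 at an unadjusted p below 0.05. In the second 2 rose and 3 fell (10.4%). The summed atrial markers, Myl4 among them, were 718 to 1253 CPM in DCM and 1271 to 1689 CPM in CK. Of 24 other Z-disc and M-band genes tested in DCM compared to CK (10.4% of all genes passed), 3 rose and Obsl1 fell. The rises on the log2 scale were 0.64 for Trim54, 0.80 for Myom3 and 0.29 for Synpo. Of 23 tested in SPM compared to DCM (16.6% of all genes passed), 5 rose, among them Neb by 1.18 and Sorbs2 by 0.61, and 4 fell. Sorbs2 alone of these passed without SPM replicate 2 (edgeR, adjusted p = 0.031), where 0.486% of all genes passed, and Neb had an adjusted p of 0.052. No gene of the lists for sarcomere assembly and turnover (19 tested), for regulators of sarcomere gene transcription (22 tested) or for the costamere (18 and 19 tested) was a DEG in these comparisons. Of all genes, 4.34% were DEGs in DCM compared to CK and 3.59% in SPM compared to DCM. At any fold, 3, 4 and 3 of them passed in DCM compared to CK (10.4% of all genes) and 3, 10 and 4 in SPM compared to DCM (16.6% of all genes). Without SPM replicate 2, 0 of each list passed by edgeR in SPM compared to DCM, where only 0.486% of all genes did. There 4, 10 and 4 had an unadjusted p below 0.05, as did 3266 of 14828 genes.

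The 8 other cardiomyocyte markers summed to 48210 to 53592 CPM in CK and 41972 to 49782 in DCM, against 34695 to 43815 in SPM, so that every SPM library was below every CK library. None of the 8 passed in DCM compared to CK, against 10.4% of all genes. In SPM compared to DCM 3 passed (1 higher and 2 lower), against 16.6% of all genes, and in SPM compared to CK 6 (1 higher and 5 lower), against 27.4%. With SPM replicate 2 left out, 0 passed by edgeR in SPM compared to DCM (4 at an unadjusted p below 0.05), where 0.486% of all genes passed. In SPM compared to CK 2 passed (1 higher and 1 lower), against 10.4% of all genes. Markers of atrial muscle, with Nppa as the most abundant, summed to 1229 to 1970 CPM in SPM. In the order CK, DCM and SPM, those of fibroblasts, led by Dcn, summed to 2067 to 2168, 1402 to 1498 and 1650 to 1729 CPM, those of macrophages, led by Lyz2, to 730 to 963, 613 to 722 and 729 to 1233 CPM, and those of red blood cells, led by Hbb-bs, to 1542 to 3621, 1330 to 3283 and 759 to 1295 CPM. Fast skeletal muscle markers summed to 25.4 to 46.5 CPM in CK and 16.7 to 19.8 in DCM, against 15.5 to 16.6 in SPM, mostly Mybpc2, with Myh1 and Myh2 near 0 and 4 of 11 under 1 CPM in every library. Smooth muscle markers, led by Acta2, summed to 452 to 626, 438 to 761 and 365 to 498 CPM, and endothelial ones, led by Fabp4, to 2605 to 2940, 2513 to 2669 and 2458 to 2521 CPM. The part of cell composition in the differences of the 31 genes was not tested.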

How the data were processed

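Heart RNA of 3 CK, 3 DCM and 3 SPM libraries, grouped by their deposited labels, was compared in pairs. The authors deposited raw counts per gene, from reads filtered with fastp 0.18.0, and FPKM values per gene, which equal the count divided by a gene length and the library total. Per the labels, the submitters' processing notes name Bowtie 0.12.2 and builds mm8 and mm9 with no role. The counting tool and the use of strand were not given in the sources used here. Symbols came from GENCODE M21, which matched 22820 of 22851 identifiers, and the position and GC content of genes from the same annotation.

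Counts were fitted over all genes with edgeR 4.0.16 (filterByExpr, TMM, quasi-likelihood test, group only) in R 4.3.3, on the 6 libraries of each comparison. A gene passed with an adjusted p (Benjamini-Hochberg) under 0.05, and the study's DEG rule adds a fold change of 1.5. The study applied that rule to DESeq2 fits, and here it was applied to the edgeR fits. The SE is the log2 fold change divided by the square root of F. CPM are scaled by TMM over all 9 libraries. The steps were tested on simulated data. The GC correction enters the lowess trend (span 0.3) of each library's log2 CPM on GC content as an offset.

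Members and gene lists were chosen with earlier results of these data known. Described in full are the genes that were DEGs in any comparison and the 3 with the smallest adjusted p in each. Of other lists, up to 4 DEGs and the most abundant marker were to be named, and Obsl1, Synpo, Myh1 and Myh2 were named after their values were seen, as were other single genes among the 31. The alternatives were DESeq2 1.42.0, RLE normalization, no filter, 1 CPM in 3 or more libraries, a joint fit of all 9 libraries, limma 3.58.1 on log2(FPKM + 0.1), removal of mitochondrial genes, the GC correction, a replicate block, a fold change of 1.3 and each library left out. The GC correction without SPM replicate 2 was added after seeing the data. Intervals between libraries are limited by 3 libraries per group. Figures used Python 3.11.15 and matplotlib 3.10.9.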

Additional observations from a re-analysis of the deposited data

How the results depend on the processing

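In DCM compared to CK, 4 of the 31 genes passed (10.4% of all genes), and the count was 8 with DESeq2 (12.6% of all genes). It was 6 with limma on FPKM (2 higher and 4 lower, 11.4% of all genes) and 6 with the GC correction (13.0%). With a library left out it was 3 to 5 (5.59% to 8.91% of all genes). The 2 DEGs became 1 (Mylk4, lower) with limma on FPKM and 0 to 2 with a library left out. Without CK replicate 2 there were 0 DEGs by edgeR, where 6 genes had an unadjusted p below 0.05, and without DCM replicate 2 there was 1. In SPM compared to DCM, 9 genes passed (16.6% of all genes), and the count was 16 with DESeq2 (19.1% of all genes) and 5 with the GC correction (3.08%). With a library left out it was 3 to 8 (0.486% to 16.3% of all genes). Without DCM replicate 1 it was 5 (5.04% of all genes), without DCM replicate 2 it was 4 (1.29%), and leaving out SPM replicate 2 gave 3 (0.486%). With the GC correction and without SPM replicate 2 the count was 0 by edgeR (0.00% of all genes), where 9 of the 31 genes had an unadjusted p below 0.05, and 16 passed by DESeq2 on all 6 libraries. The 4 DEGs became 1 with the GC correction, 1 with the replicate block and the GC correction, 0 with the GC correction without SPM replicate 2, and 1 to 4 with a library left out, the lowest without DCM replicate 2. In SPM compared to CK, 15 passed (27.4% of all genes), 6 with the GC correction without SPM replicate 2 (7.54%) and 9 to 15 with a library left out (10.4% to 25.2%). The 4 DEGs there became 8 at a fold change of 1.3. Under the alternatives, the replicate block among them, the share of all genes called DEG was not counted. In the main fits it was 4.34% in DCM compared to CK, 3.59% in SPM compared to DCM and 9.21% in SPM compared to CK.

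Of 350 values of single genes described in full, 324 kept direction and side of the threshold, 11 lost the call, 6 gained it and 9 changed sign. The 350 include comparisons in which the gene was not called, where staying uncalled counts as kept. All 11 losses therefore fell on the called comparisons alone. In DCM compared to CK, Nebl went from 0.073 to -0.0067 with limma and ranged from -0.085 (without CK replicate 1) to 0.18 with a library left out, with -0.0065 without DCM replicate 1. Nexn ranged from -0.050 (without CK replicate 1) to 0.36, and Tnni1 from -0.24 (without DCM replicate 2) to 0.44. In SPM compared to DCM, Myom2 ranged from -0.17 to 0.0015 (without DCM replicate 2), and Tcap went from -0.037 to 0.18 with the GC correction, with or without the replicate block or SPM replicate 2. None of these was called. The cause was not tested.

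Correlations of residuals were -0.075 to 0.20 between libraries of the same replicate number and -0.28 to 0.22 between others. With 3 libraries per group, these ranges cannot settle whether the replicate numbers pair the libraries. With a replicate block, 4, 13 and 15 genes passed in the 3 comparisons, against 9.04%, 19.4% and 26.3% of all genes. In the same fits, 2, 5 and 5 of the genes described here were DEGs. The share of all genes called DEG with the block was not counted, so whether these DEG counts exceed it is not known. Depth limits Myoz1 and Tnni1, and 3 libraries per group limit the rest.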
